A study of Mus musculus with 6 samples.

Results

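A set of 7 genes that restrain NF-κB by editing ubiquitin chains, namely Tnfaip3 (A20), Tnip1, Tnip2, Cyld, Otulin, Itch and Tax1bp1, were followed through p65 ChIP–seq peak lists of mouse epidermal cells. The 7 genes were named as a set by their known role, out of 21000 protein-coding genes with a curated RefSeq transcript. A peak was assigned to a gene when its middle lay nearest to a transcription start site of that gene, and peaks within 50 kb of a start site were recorded in addition. Assigned peaks numbered 16 of 8525 for adult, 8 of 4169 for aged/IgG control and 12 of 6014 for aged/anti-IL-17A/F. Merged where they overlapped, they made 16 sites of 9513 in the whole series.

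In ChIP–seq, DNA that is crosslinked to a protein is recovered with an antibody and sequenced, here for p65 (encoded by Rela). The C57bl/6J mice were untreated adults of 17 to 25 weeks, or aged mice given intraperitoneal control IgG or antibodies that block IL-17A and IL-17F, from 73 weeks of age and over 12 weeks. Cells were released from the skin with trypsin, and 4 mice of a condition were merged before peaks were called. Each condition is thus 1 list without replicates, the conditions could not be tested against each other, and every interval covers counting error only.

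NF-κB waits in the cytoplasm bound to inhibitors until the kinase IKK is switched on, and IKK is switched on by scaffolds of ubiquitin chains that grow on receptor adaptors. Deubiquitinases such as A20, CYLD and OTULIN take these chains apart, while ABIN proteins and TAX1BP1 bind the chains and bring A20 to them. A20 is a classical target of NF-κB itself, so that the pathway makes its own brake, and in skin its loss is associated with inflammation.

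Every one of the 8525 peak names in the list labelled adult begins like the names used for aged/anti-IL-17A/F. Groups follow the labels here, and all values called adult are those of the list labelled adult. An exchange of both lists would swap their values and leave aged/IgG control as it is. Among 5 epidermal markers (Trp63, Krt5, Krt14, Krt10 and Cdh1), 5 had an assigned peak in adult, 3 for aged/IgG control and 4 for aged/anti-IL-17A/F. Of 5 markers of immune cells, fibroblasts, endothelium and melanocytes, Pecam1 alone had one, in all 3 lists. Of all protein-coding genes, 23.0%, 12.9% and 17.4% had an assigned peak. The strongest Pecam1 peak stood at percentiles 99.8, 98.5 and 99.7 of the lists by fold enrichment, the ratio of reads to local background. The highest epidermal marker, Trp63, stood at 91.4, 88.3 and 82.9. A p65 peak is no measure of expression, and the cell types present cannot be read from these lists.

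The sequences at the strongest sites are shown first, since the position of p65 can be read against them. All come from the RefSeq genome of GRCm38.p6 (mm10), run 5′ to 3′ on the strand of the gene, and have matches to the NF-κB consensus motif (10 bases, found on either strand, overlapping matches joined) in capitals. The first is the stretch of 200 bases that ends at the base before the Tnfaip3 start site, chr10:19015411-19015610 (minus strand). The others are the matches that lay inside an assigned peak of every list, with their flanks, in the order of their place in Tnfaip3, Tnip1 and Cyld, and the match in Tax1bp1.
Tnfaip3, upstream of the start site: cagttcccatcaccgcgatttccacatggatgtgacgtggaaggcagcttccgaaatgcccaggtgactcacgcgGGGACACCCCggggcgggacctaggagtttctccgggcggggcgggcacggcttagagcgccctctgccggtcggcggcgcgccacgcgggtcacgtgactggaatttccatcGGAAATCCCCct
Tnfaip3, intron, chr10:19009409-19009462 (minus strand): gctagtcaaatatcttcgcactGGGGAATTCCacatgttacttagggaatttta
Tnip1, upstream of the start site, chr11:54962965-54963020 (minus strand): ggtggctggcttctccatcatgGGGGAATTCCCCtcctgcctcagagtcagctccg
Tnip1, first intronic site, chr11:54961616-54961670 (minus strand): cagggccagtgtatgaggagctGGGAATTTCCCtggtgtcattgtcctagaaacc
Tnip1, second intronic site, chr11:54958534-54958587 (minus strand): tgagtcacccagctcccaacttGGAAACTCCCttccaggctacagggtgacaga
Tnip1, strongest site, match near the summit, chr11:54956102-54956131 (minus strand): tcggtctccgGGGACTTTCCcaggggcgtg
Tnip1, strongest site, other match, chr11:54955887-54955916 (minus strand): cgccaggcttGGGGGACTCCCggccggagg
Cyld, farther match, chr8:88696516-88696570 (plus strand): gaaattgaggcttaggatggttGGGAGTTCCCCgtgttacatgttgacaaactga
Cyld, nearer match, chr8:88696863-88696892 (plus strand): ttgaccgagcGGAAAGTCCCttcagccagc
Tax1bp1, chr6:52714189-52714218 (plus strand): aggaagaggcGGGGACTCCCtgtgtcgcct

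Tnfaip3 encodes A20, which removes K63-linked chains from pathway adaptors. It is a minus-strand gene of chromosome 10, from 19000910 to 19015410. Its strongest peak covered the start site, at 19014767 to 19015784 for adult, with a summit within 19 bases of the start in each list. Of the capitals in the upstream sequence, the match nearest to the gene was centred 7 bases before the start and 12 to 26 bases from the 3 summits. The other match was centred 120 bases before the start. An AP-1 motif (TGANTCA on either strand), read as tgactca, stood 4 bases before that second match in the printed strand.
The fold enrichment at this start site, the authors' ratio of reads to local background, was 13.8 for adult, 14.2 for aged/IgG control and 21.6 for aged/anti-IL-17A/F. These values stood at percentiles 98.8, 99.6 and 99.983 of their lists, and the last ranked 2 there. The number of reads over the summit, which can be solved from the fold enrichment and the p-value of a peak, gave another order. It was 364 for adult (95% exact Poisson interval 328 to 403), 274 for aged/IgG control (242 to 308) and 329 for aged/anti-IL-17A/F (294 to 366). Adult was thus highest by reads and lowest by fold enrichment. The local background there was 25.4 reads in adult, 18.4 for aged/IgG control and 14.3 for aged/anti-IL-17A/F, so that the list with the highest fold enrichment was the one with the lowest background. By reads, the peak ranked 5, 6 and 7 in the 3 lists. The reads intervals of adult and aged/IgG control did not overlap, and those of aged/anti-IL-17A/F overlapped both.

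The second Tnfaip3 peak of every list lay in an intron, 5948 to 5995 bases downstream of the start site, at 19009148 to 19009709 for adult. The match GGGGAATTCC printed above lay within 27 bases of each summit. Reads at the summit were 160 for adult, 131 for aged/IgG control and 165 for aged/anti-IL-17A/F, with intervals that all overlapped. Fold enrichments were 9.15, 7.55 and 10.9, respectively, which placed the intronic peak between percentiles 92.1 and 97.5 of the lists.
The remaining Tnfaip3 peaks stood below the median of their lists by fold enrichment. One beyond the 3′ end of the gene, with its summit 41116 bases from the start in adult, held a match and was called in adult (50 reads) and in aged/IgG control (53 reads) but had no call for aged/anti-IL-17A/F. Another, 27350 bases downstream of the start in adult, had 70 reads in adult and 48 for aged/anti-IL-17A/F. The next, 19870 bases upstream of the start in adult, had 57 and 60 reads in those lists. Neither was called in aged/IgG control. The last lay 3376 bases from the start, over the start site of a shorter curated transcript at 19011963, and was called in adult alone, with 54 reads.
Farther upstream, 3 sites within 50 kb of the Tnfaip3 start site were nearer to that of Gm51814, a noncoding RNA gene. The strongest, about 47 kb upstream, was called in every list, with 158 reads in adult, 118 for aged/IgG control and 161 for aged/anti-IL-17A/F, and held no match. The next, on chromosome 10 from 19059280 to 19059949, had 77 reads in adult and 74 for aged/anti-IL-17A/F. The outermost, 49910 bases from the start site measured from its middle, was called in aged/anti-IL-17A/F alone (44 reads) and was just inside the limit of 50 kb. The next peaks beyond that limit were over 133 kb away.

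**Figure D1:**
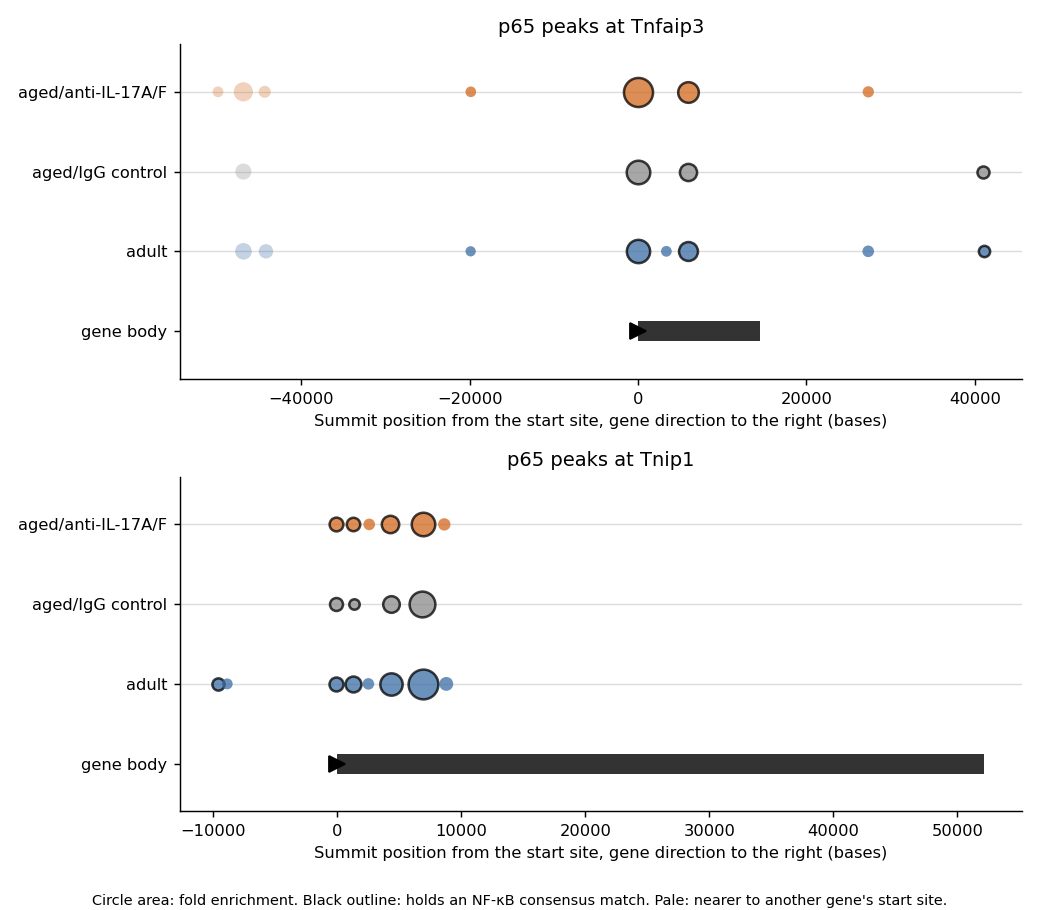
Summit positions of p65 peaks at Tnfaip3 and Tnip1 by list, in bases from the start site with the gene running to the right. Circle area is the fold enrichment, a black outline marks a peak with an NF-κB consensus match, and pale circles are peaks nearer to another gene. The large outlined circles at the Tnfaip3 start site and about 6900 bases inside Tnip1 are present in all 3 lists, and most small circles without an outline are absent from aged/IgG control.

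Tnip1 encodes ABIN1, which binds ubiquitin chains and links A20 to its substrates. It is a minus-strand gene of chromosome 11, with its curated start site at 54962940. It had 8 assigned peaks in adult, 4 for aged/IgG control and 6 for aged/anti-IL-17A/F, spread from 9608 bases upstream to 8794 bases downstream of the start site in adult. Few genes had as many. At least as many peaks were assigned to 19 of 4838 bound protein-coding genes in adult (0.393%), 60 of 2706 for aged/IgG control (2.22%) and 31 of 3649 for aged/anti-IL-17A/F (0.85%). For the peaks of Tnfaip3, 6, 3 and 4 in the same order of lists, these shares were 1.34%, 6.5% and 3.48%. Cyld and Tax1bp1 had at most 1.

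**Figure D2:**
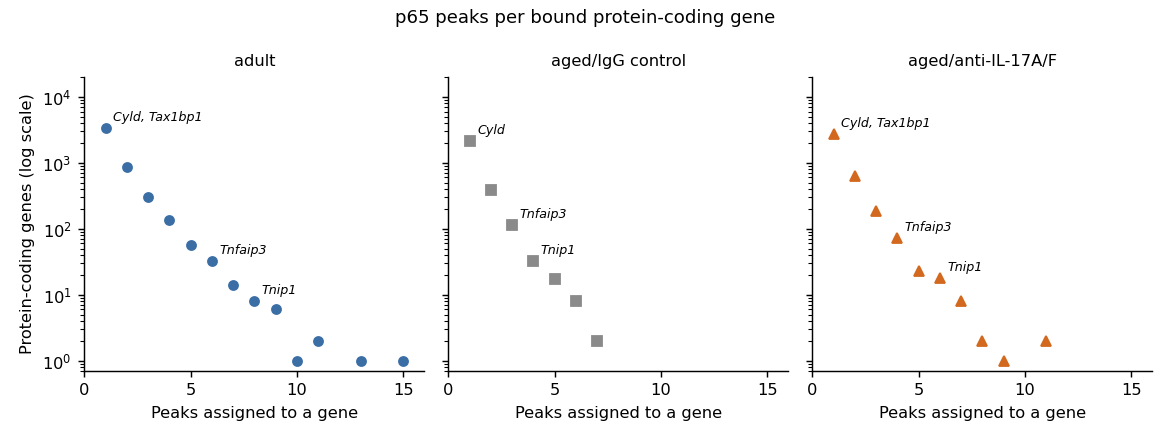
Number of protein-coding genes (log scale) by the number of p65 peaks assigned to them, 1 panel for each list, with the genes that edit ubiquitin named beside their point. Tnip1, with 8, 4 and 6 peaks, and Tnfaip3, with 6, 3 and 4, lie far to the right of most bound genes, which had 1 peak.

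The strongest Tnip1 peak was not at the curated start site. It lay 6876 to 6900 bases inside the gene, at 54955590 to 54956557 for adult, over an exon of the transcript NM_001199275.2 (54956021 to 54956178) that is untranslated 5′ sequence there and intron in other transcripts. The printed match GGGACTTTCC is inside this exon, 52 to 76 bases from the summits, and the other match was 139 to 163 bases from them.
Reads at this summit were 397 for adult (interval 359 to 438), 307 for aged/IgG control (274 to 343) and 363 for aged/anti-IL-17A/F (327 to 402). Only Nfkbia had more reads in adult and in aged/IgG control, where the Tnip1 peak ranked 2, and it ranked 4 for aged/anti-IL-17A/F. Fold enrichment, at 22.6, 16.96 and 14.1, instead placed aged/anti-IL-17A/F lowest. The local background was 16.6, 17.2 and 24.8 reads, highest in the list with the lowest fold enrichment. At the Tnfaip3 start site, the list with the highest background and the lowest fold enrichment was adult instead, while the order by reads was the same at both.

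The next strongest Tnip1 site, in an intron 4287 to 4354 bases from the start, had 187 reads in adult (interval 161 to 216), 105 for aged/IgG control (85.9 to 127) and 132 for aged/anti-IL-17A/F (110 to 156). The adult interval lay above both others. In the printed strand, the AP-1 motif tgagtca stood 15 bases before its match, at the left end of the sequence. The backgrounds were close here (13.8, 14.02 and 16.2 reads), and fold enrichments were 12.7, 7.06 and 7.74.
At the Tnip1 start site itself, the summit lay 67 to 72 bases upstream, beside the printed palindrome GGGGAATTCCCC, whose centre was 15 to 20 bases away. Another match, GGAATCCCCC, centred 351 bases before the start, lay inside the peaks of adult and aged/anti-IL-17A/F only. Reads were 93 for adult, 66 for aged/IgG control and 82 for aged/anti-IL-17A/F, with overlapping intervals. The first intronic site, 1285 to 1331 bases downstream, had 98, 72 and 66 reads. Here aged/IgG control had the lowest fold enrichment (2.79, against 6.46 for adult and 4.60 for aged/anti-IL-17A/F) with a background of 25.2 reads, although its reads were above those of aged/anti-IL-17A/F.
Another 4 Tnip1 sites were absent from aged/IgG control. Those 2515 and 8794 bases inside the gene had 56 and 76 reads in adult and 51 and 56 for aged/anti-IL-17A/F. The second of them had a fold enrichment of 4.92 in adult (percentile 75.7), close to the 4.98 at the Tnip1 start site. Those 8865 and 9608 bases upstream had 50 and 54 reads and were called in adult alone, and the more distant of them held the match GGGAATTTCCC.

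Cyld encodes a deubiquitinase that removes K63-linked and linear chains. Its single assigned peak ran over the start site, on chromosome 8 from 88696273 to 88697604 for adult, with a summit 56 to 77 bases upstream of the curated start at 88697028. Reads were 266 for adult (interval 235 to 300), 168 for aged/IgG control (144 to 195) and 224 for aged/anti-IL-17A/F (196 to 255). The intervals of adult and of aged/anti-IL-17A/F both lay above that of aged/IgG control, which was the case at no other site of these genes. Fold enrichment gave the same order, with 18.5, 10.1 and 14.4, on backgrounds of 13.4, 15.7 and 14.6 reads. The nearer of the printed matches was 74 to 95 bases from the summits and the farther one 408 to 429.
A site in an intron of Nod2, which encodes a sensor of bacterial peptidoglycan, lay about 47 kb upstream of Cyld and was nearest to the Nod2 start site. It had 136 reads in adult, 113 for aged/IgG control and 133 for aged/anti-IL-17A/F. A weaker peak, 49807 bases from the Cyld start and thus just inside 50 kb, was called in adult alone (59 reads). The first peak beyond the limit was 58306 to 58326 bases away in the 3 lists and nearest to Snx20.

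Tax1bp1 encodes a ubiquitin-binding adaptor that recruits A20 and ITCH. Its peak, on chromosome 6 from 52713837 to 52714459 for adult, was the weakest of the strongest peaks of the bound genes. It had 64 reads in adult and 58 for aged/anti-IL-17A/F, with fold enrichments of 3.24 and 3.11 (percentiles 36.6 and 28.6). The printed match, in a 5′ untranslated exon of one transcript, was 3 bases from the adult summit and 165 from the other. No peak was called there in aged/IgG control. By the summit p-value alone, a call would have taken about 31 reads at the lowest background of that list and 40 at the background seen in adult. The fewest reads of any peak called in that list were 34. The missing peak thus does not show that reads were absent, and it sets no exact bound on them.

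Tnip2 (ABIN2), Otulin, which removes linear chains, and Itch, a ubiquitin ligase that works with A20, had no assigned peak in any list. Near Tnip2, adult alone had 2 weak peaks within 50 kb, of 52 and 48 reads, both in an intron of Sh3bp2, and the nearest peak was 177667 bases away in aged/IgG control and 123152 for aged/anti-IL-17A/F. Near Otulin, a strong site in an intron of the neighbouring Otulinl was called in all lists, 27762 to 27793 bases upstream of the Otulin start. It had 166 reads in adult, 135 for aged/IgG control and 160 for aged/anti-IL-17A/F, and held no match to the consensus. The nearest peak to Itch was 109073 bases away in adult, 248398 for aged/IgG control and 109068 for aged/anti-IL-17A/F.

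In all, 4 of the 7 genes had an assigned peak in adult, 3 for aged/IgG control and 4 for aged/anti-IL-17A/F. Of all protein-coding genes, 23.0%, 12.9% and 17.4% had one in these lists. With any peak within 50 kb counted, the numbers were 6, 4 and 5 of 7, beside 43.4%, 27.5% and 35.0% of all genes. The bound genes were Tnfaip3, Tnip1 and Cyld in every list and Tax1bp1 in both others. The strongest peaks of Tnfaip3, Tnip1 and Cyld stood at or above percentile 97.6 of every list, whereas Tax1bp1 stood below the median by fold enrichment. Ranked by reads instead, Tax1bp1 stood at percentile 55.7 in adult and 41.7 for aged/anti-IL-17A/F.

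Of the 16 merged sites, 7 were called in all 3 lists (36.6% of all sites in the series), 5 in adult and aged/anti-IL-17A/F only, 1 in adult and aged/IgG control only and 3 in adult alone. Over all 9513 sites, these classes held 1616, 372 and 3002. Of the 16 sites, 8 were thus missing from aged/IgG control, 4 from aged/anti-IL-17A/F and 0 from adult, beside 56.6%, 37.3% and 10.9% of all sites. These counts moved with the length of the lists. With equal numbers of peaks per list, assigned peaks were 9 for adult, 8 for aged/IgG control and 10 for aged/anti-IL-17A/F, and of 12 sites 1 was in adult and aged/anti-IL-17A/F only, 1 in adult alone, 2 in aged/anti-IL-17A/F alone and 1 in aged/IgG control alone. The 8 sites missing from aged/IgG control had 50 to 76 reads in adult. By the summit p-value alone, a call there would have taken 31 reads at the lowest background of the list. At the highest background seen at such a site it would have taken 43. These numbers leave out any other requirement of peak calling and set no bound on the reads there. The fewest reads of any peak called in that list were 34. The 7 shared sites all held a match, and their summits moved by at most 67 bases between lists (median 38, beside 46 over all 3486 shared sites).
At 6 of these 7 sites, aged/IgG control had the fewest reads, and at 5 the order was adult, aged/anti-IL-17A/F, aged/IgG control. Over all shared sites, the corresponding shares were 85.3% and 65.5%, so that the count of 6 stood at the level of the whole series. By fold enrichment, aged/IgG control was lowest at 5 of 7, beside 58.2% of all shared sites. The order of the lists by fold enrichment differed from that by reads at 3 of the 7 sites and at 55.3% of all shared sites. The median ratio of adult to aged/IgG control reads was 1.36 over the 7 sites and 1.36 over all. For aged/anti-IL-17A/F to aged/IgG control it was 1.24 and 1.21. By fold enrichment, these median ratios were 1.33 beside 1.25 and 1.43 beside 1.11.
The adult interval lay above that of aged/IgG control at 4 of the 7 sites, the start sites of Tnfaip3 and Cyld, the strongest Tnip1 site and the Tnip1 intronic site at 4.3 kb. Over all shared sites this was so at 25.9%. For aged/anti-IL-17A/F above aged/IgG control, the Cyld site stood beside 6.43% of all, and for adult above aged/anti-IL-17A/F, the Tnip1 site at 4.3 kb stood beside 2.84%. Relative to the number of reads, the intervals narrow as that number rises. It was above the list median of 61 to 63 reads at all 7 sites.

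**Figure D3:**
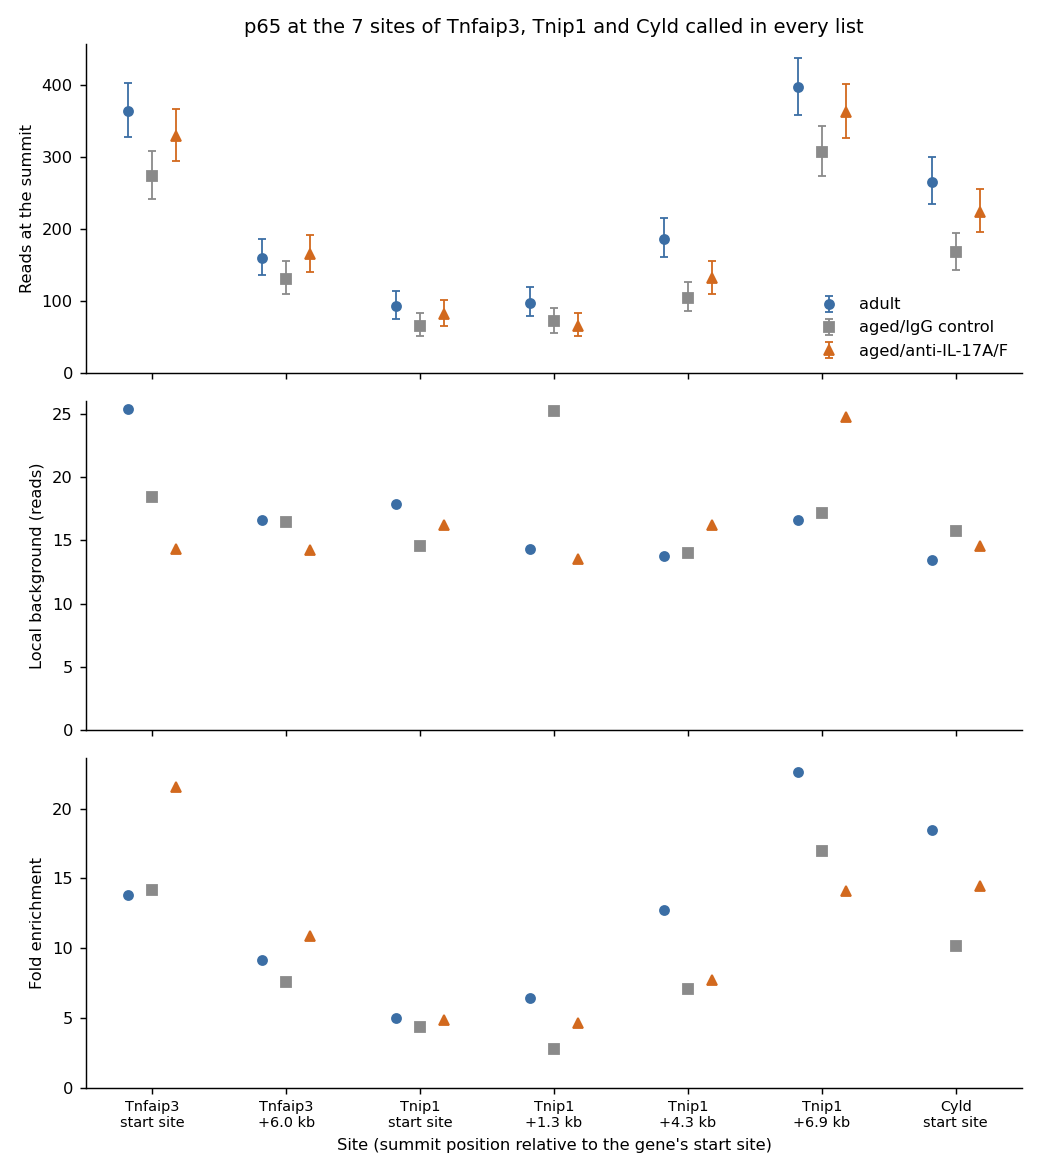
Reads at the summit with 95% exact Poisson intervals (top), local background in reads (middle) and fold enrichment (bottom) at the 7 sites called in every list. Reads were highest in adult at 6 sites, whereas fold enrichment was highest in aged/anti-IL-17A/F at both Tnfaip3 sites, where its background was lowest.

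A match to the NF-κB consensus was found in 10 of 16 assigned peaks in adult (62.5%), 8 of 8 for aged/IgG control and 8 of 12 for aged/anti-IL-17A/F (66.7%). All peaks of the lists had one in 34.9%, 44.7% and 41.9%, and the strongest decile by fold enrichment in 68.7%, 69.9% and 69.7%. Among the assigned peaks, 5 in each list belonged to the strongest decile. Within 100 bp of the summit, a window of equal length for every peak, 9, 8 and 7 of the assigned peaks had a match. Of all peaks, 28.5%, 37.8% and 34.9% had one there, and of the strongest decile 61.0%, 62.9% and 62.7%. At least 2 separate matches were found in 4, 3 and 4 assigned peaks. These peaks lay at the Tnfaip3, Tnip1 and Cyld start sites or the strongest Tnip1 site. Of all peaks, 4.34%, 5.83% and 5.19% had as many, and of the strongest decile 13.9% to 14.6% over the 3 lists. All but those at the Tnip1 start site belonged to that decile, and all were wider than the median peak of their list. Peak width was not matched in these shares.
The set of RefSeq promoters used, 300 bases from 250 before to 50 after a start, had no entry for Itch. It held the other 6 of the 7 genes. Of their 8 windows 4 held a match, 1 each for Tnfaip3, Tnip1, Cyld and Tax1bp1 and none for Tnip2 and Otulin, while 4.51% of 32851 such windows of all genes held one. A match is a description of the sequence and no proof of a site in use, and its absence concerns only these letters in this window. The AP-1 motif was found within 100 bp of the summit in 2, 1 and 1 assigned peaks, beside 13.2%, 14.1% and 14.4% of all peaks.

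Of 15 genes for ligases, adaptors and kinases of the ubiquitin pathway toward IKK, 7 were bound in adult, 5 for aged/IgG control and 5 for aged/anti-IL-17A/F. These are 46.7%, 33.3% and 33.3%, beside the 23.0%, 12.9% and 17.4% of all protein-coding genes. Traf2 and Birc3, a receptor adaptor and a ligase of the same complex, and Map3k7 (TAK1), the kinase upstream of IKK, had the highest percentiles of both pathway lists in adult and for aged/anti-IL-17A/F. In aged/IgG control, Tank (94.2) and Zc3h12a (92.6) followed Traf2 (94.9), above Map3k7 (90.1) and Birc3 (86.8). Reads at their strongest peaks were 289, 229 and 280 for Traf2, 232, 177 and 225 for Birc3 and 199, 137 and 164 for Map3k7, in the order of lists used above. Rnf31, the catalytic subunit of the linear chain ligase LUBAC, was bound in aged/IgG control alone (78 reads). Ube2n, an enzyme for K63-linked chains, had 65 reads in adult and 52 for aged/anti-IL-17A/F and no peak in aged/IgG control. Traf6 (38 reads) and Tab3 (47 reads) were bound in adult alone.
Of 17 other deubiquitinases and ubiquitin-binding regulators, 8 were bound in adult (47.1%), 3 for aged/IgG control (17.6%) and 5 for aged/anti-IL-17A/F (29.4%). The share in aged/IgG control was near the 12.9% of all protein-coding genes, which also had the fewest bound in that list. Otub1, Tank and Zc3h12a were bound in all lists. Spata2, which links CYLD to LUBAC, had 52 reads in adult and 50 for aged/anti-IL-17A/F, and Ndfip2, an activator of ITCH-type ligases, had 68 and 57. Zranb1, Optn and N4bp1 were bound in adult alone, with 47, 51 and 47 reads. Pathway genes bound in some of the lists only thus had at most 78 reads at their strongest peak.

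The inhibitors and partners of NF-κB in the classical feedback loop served as a scale. Nfkbia, Nfkbib, Nfkbie, Nfkb2 and Relb were bound in all 3 lists. Nfkbia (IκBα) had the most reads of any gene, with 441 for adult, 359 for aged/IgG control and 407 for aged/anti-IL-17A/F. Nfkb2 (386, 294 and 374) lay between Tnfaip3 and Tnip1 in adult and in aged/IgG control and above both for aged/anti-IL-17A/F. Nfkbib (355, 251 and 323) lay below both in every list. Nfkbie (273, 198 and 255) had more reads than Cyld in each list, and Relb (241, 189 and 241) had fewer in adult and more in the other two. Among the protein-coding genes whose strongest peaks had percentiles most like those of Tnfaip3 over the 3 lists, out of 2388 bound in all, were Cdcp2 and Cryaa. Their percentiles differed from those of Tnfaip3 by at most 0.382 and 0.48 points in any list.

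**Figure D4:**
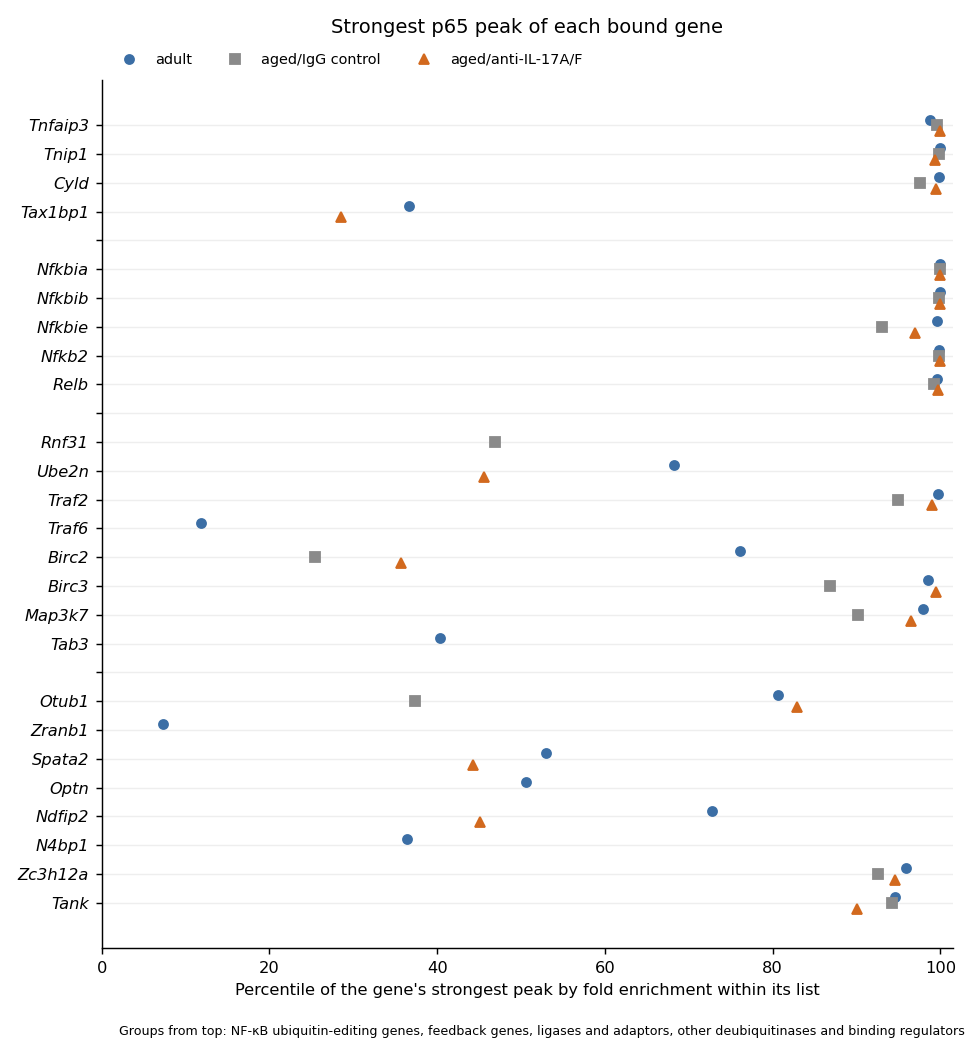
Percentile by fold enrichment of the strongest p65 peak of each bound gene within its list, in groups from top to bottom for the ubiquitin-editing genes, feedback genes, ligases and adaptors, and other deubiquitinases and binding regulators. Tnfaip3, Tnip1 and Cyld lie among the feedback genes at the right edge, while Tax1bp1 lies at 36.6 for adult and 28.6 for aged/anti-IL-17A/F.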

How the data were processed

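According to the methods, the authors trimmed reads (Trimmomatic 0.36), aligned them to mm10, merged and deduplicated 4 mice per condition, downsampled every pool to the same read number and called peaks with MACS2 (q 0.01, fragments extended to 300 bp). Each deposited list gives per peak a score, a fold enrichment (ratio to local background), the −log10 p-value, the −log10 q-value and the summit. The use of the 3 inputs in peak calling is not given in the sources used here, and the inputs were not analysed here.

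Peaks were assigned from their middle to the nearest start site among 45756 curated RefSeq transcripts (GRCm38.p6). Summit reads and background were solved from fold = (reads + 1)/(background + 1) and the Poisson p-value. The reads came out whole within 0.05 for 100% of peaks in each list, with 34 to 441 reads per peak. The lowest backgrounds (13.4, 13.1 and 13.6 reads) differed by at most 1.04 times between lists. Intervals were 95% exact Poisson. Solving, assignment, motif and merging steps were tested on simulated data. Python 3.11.15, scipy 1.17.1 and pysam 0.24.0 were used.

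The genes, gene lists and tests were chosen with earlier results of these data known. Genes named are the 7, pathway genes bound in some lists or highest by percentile, the feedback genes, the 3 closest to Tnfaip3 (of which 1 is not reported here) and neighbours of peaks within 50 kb. Otub1, Tank, Zc3h12a and Snx20 were named after their values were seen. Alternatives were stricter q values, equal peak numbers, other overlaps, other start sites, windows and motif rules, exchanged lists and, added after the data were seen, ranks by reads.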

Additional observations from a re-analysis of the deposited data

How the results depend on the processing

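No paired analysis was possible because each condition is 1 pooled list. Of 210 recomputed counts, shares and medians, 187 stayed within 1.5 times the reported count or the counting interval, and 23 did not. Of 86 recomputed percentiles of single genes, 55 stayed within the counting interval and 31 did not. Those of Tnfaip3, Tnip1 and Cyld were at least 96.6 under every alternative that gave a value. The Tax1bp1 percentile fell from 36.6 to 7.7 in adult and from 28.6 to 3.15 for aged/anti-IL-17A/F with a −log10 q of at least 10, and was 55.7 and 41.7 by reads. The 7 sites shared by all lists remained 7 under every alternative except start sites of protein-coding genes only, where there were 8. With equal numbers of peaks per list, assigned adult peaks fell from 16 to 9, below the 10 of aged/anti-IL-17A/F (12 as reported), 88.9% of the 9 held a match, Tax1bp1 was lost from both lists, and sites in adult and aged/anti-IL-17A/F, adult and aged/IgG control, adult alone, aged/anti-IL-17A/F alone and aged/IgG control alone numbered 1, 0, 1, 2 and 1. With a −log10 q of at least 10, the first, second and last of these were 3, 0 and 1. With summits within 150 bp, sites of adult and aged/anti-IL-17A/F, adult alone and aged/anti-IL-17A/F alone were 3, 5 and 2, and with start sites of protein-coding genes only the last was 1. With the lists of adult and aged/anti-IL-17A/F swapped, sites of adult and aged/IgG control, adult alone, aged/anti-IL-17A/F alone and both aged lists were 0, 0, 3 and 1, by construction. The median percentile of the strongest peaks in adult, 99.3, was 99.0 with a −log10 q of at least 10, 99.6 with equal numbers, 98.8 with protein-coding start sites and 99.6 by reads. In aged/IgG control it was 99.6, and 99.9 by reads. Peaks were called from 34 reads upward, and how far depth limits the weak sites was not tested. Pooling hides the spread between mice, and whether the lower reads of aged/IgG control came from the chromatin or from the immunoprecipitation was not tested.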

Other observations

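The local background, which is the denominator of the fold enrichment, differed between lists more than their overall level did. Its lowest value differed by at most 1.04 times between lists, but at a given shared site the highest and lowest backgrounds differed by a median of 1.28 times, and by more than 1.5 times at 17.8% of 3486 shared sites. At the Tnfaip3 start site the ratio was 1.78, at the first intronic Tnip1 site 1.86 and at the strongest Tnip1 site 1.49. These 3 sites are the ones among the 7 at which the order of the lists by fold enrichment and by reads differed.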
